A study of Mus musculus with 8 samples.

Results

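The genes of cholesterol synthesis described here are Hmgcs1, Idi1, Fdps, Fdft1, Sqle, Cyp51, Dhcr7 and Srebf2. The rule picks them by symbol and uses no measured value, although the genes were proposed with earlier results of these data known. They make up 8 of the 54752 genes counted in the right cerebral cortex of 8 wild-type C57BL/6 mice (C57BL/6 J in the methods). Of these mice, 4 had a sham operation and 4 had bilateral carotid artery stenosis (BCAS), and all were taken 3 weeks later. All mice were adult males with no transgene or drug. In BCAS mice a microcoil around each common carotid artery narrows it and so reduces blood flow to the brain. The narrower coil was on the right, the side sampled. Sham mice had the same surgery without coils. Each library came from 1 mouse and holds all the cell types of that tissue.

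Cholesterol is built from acetyl-CoA through mevalonate, isoprenoid units, squalene and lanosterol. The blood-brain barrier keeps out cholesterol of the blood, so the brain makes its own, in the adult mostly in astrocytes and oligodendrocytes, with neurons contributing some of the steps. SREBP-2, the product of Srebf2, is held in the endoplasmic reticulum by Scap and the Insig proteins when sterols are plentiful and moves to the nucleus when they are scarce, where it switches on the enzymes of the pathway and its own gene. Of the 8 genes, 7 encode enzymes and Srebf2 encodes this regulator, so the set is a part of the pathway with its controlling factor.

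The libraries held between 16759364 and 21794435 counted read pairs, and the normalization factors lay between 0.949 and 1.05. All 8 genes were among the 17136 that passed the filter on low counts. Values are CPM after this normalization, that is, read pairs of a gene per 1000000 counted pairs. A gene is called lower or higher at an adjusted p under 0.05 in edgeR's quasi-likelihood test, and the study's additional threshold is an absolute log2 fold change above 1. Sham mouse 3 stood apart in choroid plexus RNA, with a summed level of 756.5 CPM over 4 marker genes against 15.6 to 65.0 CPM in the other libraries, and it had the lowest summed oligodendrocyte marker level, 4107 CPM against 6336 to 6575 CPM in the other sham mice. Among the BCAS mice, microglial marker RNA was most abundant in mouse 1 and least abundant in mouse 2. The mice carry numbers only as names.

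Of the 8 genes, 7 were lower in BCAS than in sham mice and none was higher, where 12.8% of all tested genes were lower and 19.2% were higher. The gene not called was Fdps, which had few counted reads. In those 7 genes every BCAS mouse lay under every sham mouse, an arrangement that 16.3% of the tested genes showed. Their log2 fold changes ran from -0.86 for Hmgcs1 to -0.35 for Dhcr7. The log2 fold changes of these 7 were thus all below 0, as were 50.5% over all tested genes. Their median was -0.73, and -0.70 with Fdps, beside -0.0063 over all tested genes. None of the 8 passed the study's fold threshold as well, in edgeR, DESeq2 or limma-voom, which 1.28% of the tested genes did downward. These are levels in whole tissue, in which fewer cells of a type and less RNA per cell cannot be told apart.

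**Figure D1:**
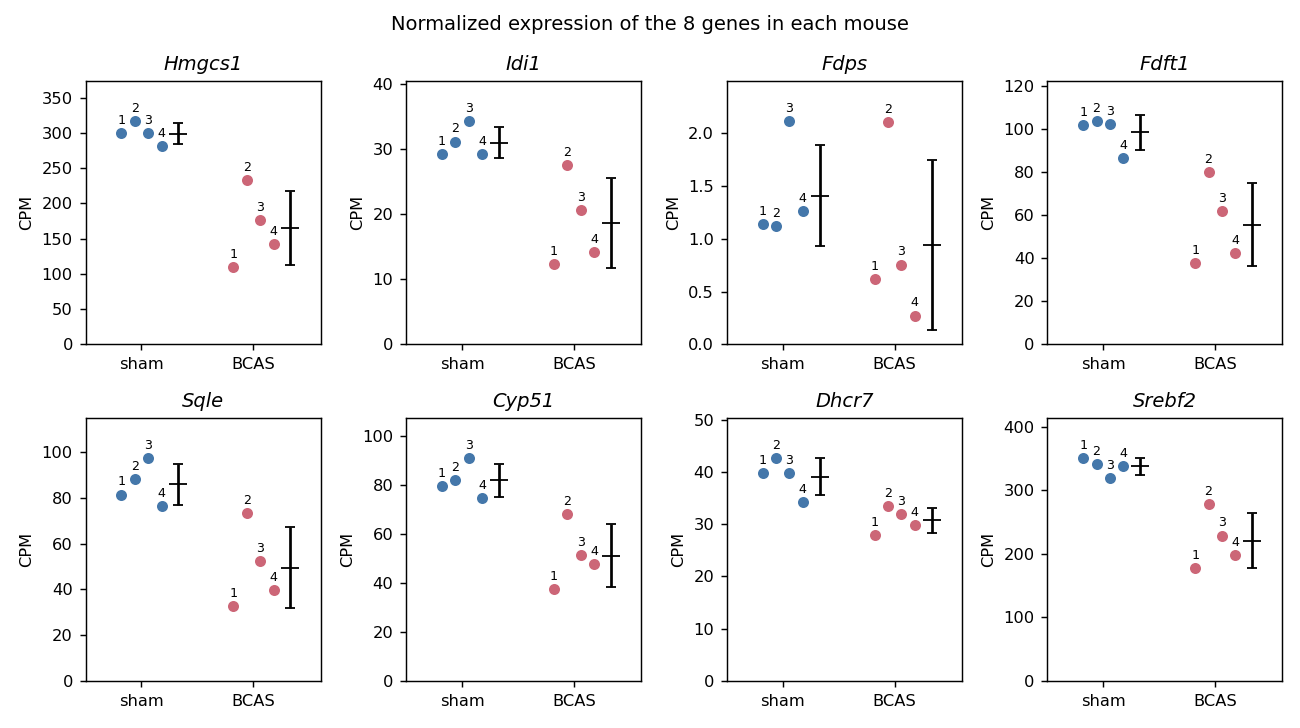
CPM (vertical axes, linear, from 0) of each of the 8 genes in the 4 sham mice (blue) and the 4 BCAS mice (red), with the mouse number above each point. The bars give the mean ± SD of each group. In 7 panels the BCAS points lie below all the sham points with mouse 2 highest and mouse 1 lowest, while in the Fdps panel, which ends near 2 CPM, the groups overlap.

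Hmgcs1 (ENSMUSG00000093930.2, chr13:119690379-119708260, plus strand, GRCm38) encodes the cytosolic synthase that makes HMG-CoA, from which mevalonate is formed. Sham mice 1 to 4 had 299.7, 316.7, 299.2 and 280.9 CPM. BCAS mice 1 to 4 had 109.7, 232.8, 175.8 and 142.3 CPM. The highest BCAS mouse therefore stayed below the lowest sham mouse, and the BCAS mice spread more widely than the sham mice. The means were 299 ± 14.6 CPM (SD, n = 4) and 165 ± 52.5 CPM (SD, n = 4), a log2 fold change of -0.86 (SE 0.20) with an adjusted p of 0.0158 in edgeR. Among the 8 genes this was the largest fall. Exons of Gm48342 on the opposite strand cover 12.12% of its exon bases, and at most 10 read pairs were counted for Gm48342 in any library.

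Idi1 (ENSMUSG00000058258.14, chr13:8885501-8892451, plus strand) encodes the isomerase that converts isopentenyl diphosphate into dimethylallyl diphosphate, the starter of isoprenoid chains. Its levels were 29.2, 31.1, 34.3 and 29.1 CPM in sham mice 1 to 4 and 12.3, 27.6, 20.6 and 14.2 CPM in BCAS mice 1 to 4. The gap between the groups was narrow, since BCAS mouse 2 came within a few CPM of the lowest sham mice. The log2 fold change was -0.73 (SE 0.23), with an adjusted p of 0.0402 in edgeR, the weakest of the 7 calls.

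Fdps (ENSMUSG00000059743.12, chr3:89093588-89101959, minus strand) encodes farnesyl diphosphate synthase, which makes the last intermediate shared by sterols, dolichol, ubiquinone and prenylated proteins. Only 20, 18, 37 and 21 read pairs were counted for sham mice 1 to 4. The BCAS mice, in order of number, had 14, 41, 14 and 5. The groups overlapped, and the difference was not called (log2 fold change -0.59, SE 0.54, adjusted p 0.422 in edgeR). The table gives another gene, Gm43738, on the same strand, whose exons cover between 76.39% and 81.33% of the bases of the 2 annotated Fdps coding transcripts. Gm43738 itself was listed at 0 in all 8 libraries. The counting recorded with the data had no option for read pairs that fall on more than 1 gene, so pairs over the shared bases counted for neither gene. The Fdps values are therefore those of the bases left over and do not measure its coding transcripts, and the pathway has no usable value at this step.

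Fdft1 (ENSMUSG00000021273.10, chr14:63145150-63179578, minus strand) encodes squalene synthase, the first enzyme whose product goes to sterols alone. Sham mice 1 to 4 had 101.7, 103.6, 102.5 and 86.4 CPM, and BCAS mice 1 to 4 had 37.8, 79.8, 61.8 and 42.5 CPM. Every BCAS mouse was lower than sham mouse 4, itself the lowest of its group. The log2 fold change was -0.83 (SE 0.22), with an adjusted p of 0.0223 in edgeR. The lysosomal protease gene Ctsb on the opposite strand covers 18.31% of the Fdft1 exon bases, and the counting ignored strand. Ctsb went from 603 ± 69.6 CPM (SD, n = 4) in sham to 2590 ± 1358 CPM (SD, n = 4) in BCAS mice (log2 fold change 2.10, adjusted p 0.00469 in edgeR), so a neighbour that shares exon bases with Fdft1 moved the opposite way, and what this did to the Fdft1 counts was not tested.

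Sqle (ENSMUSG00000022351.14, chr15:59315077-59331192, plus strand) encodes squalene epoxidase, which adds the first oxygen atom of the sterol and is a point of control of the pathway. No other gene shares its exon bases. Its levels were 81.5, 88.2, 97.6 and 76.7 CPM in sham mice 1 to 4 and 32.9, 73.3, 52.3 and 39.9 CPM in BCAS mice 1 to 4. BCAS mouse 2 lay just under sham mouse 4, and BCAS mouse 1 was far below. The means were 86.0 ± 9.05 CPM and 49.6 ± 17.7 CPM (SD, n = 4 each), a log2 fold change of -0.79 (SE 0.22) with an adjusted p of 0.0279 in edgeR.

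Cyp51 (ENSMUSG00000001467.5, chr5:4081145-4104746, minus strand) encodes lanosterol 14-alpha-demethylase, the cytochrome P450 that begins the trimming of lanosterol. Sham mice 1 to 4 had 79.8, 82.2, 91.2 and 74.8 CPM, and BCAS mice 1 to 4 had 37.5, 68.2, 51.3 and 48.0 CPM. The groups did not overlap, and the log2 fold change was -0.68 (SE 0.16, adjusted p 0.0174 in edgeR). Akap9 on the opposite strand covers 3.76% of its exon bases, and Akap9 had a log2 fold change of -0.01 (adjusted p 0.974).

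Dhcr7 (ENSMUSG00000058454.15, chr7:143823145-143848410, plus strand) encodes 7-dehydrocholesterol reductase, which makes cholesterol in the last step of the Kandutsch-Russell route. It moved least. Sham mice 1 to 4 had 39.8, 42.7, 39.7 and 34.2 CPM and BCAS mice 1 to 4 had 27.96, 33.4, 32.0 and 29.7 CPM. BCAS mouse 2 and sham mouse 4 differed by less than 1 CPM, although no value crossed. The log2 fold change was -0.35 (SE 0.10), with an adjusted p of 0.0278 in edgeR. Unlike the other genes it varied little among BCAS mice (30.8 ± 2.40 CPM, SD, n = 4), so a small difference stood out from the spread.

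Srebf2 (ENSMUSG00000022463.8, chr15:82147181-82205379, plus strand), the gene of the factor that drives the enzymes above, moved in the same direction as they did. Its levels were 351.0, 341.8, 319.6 and 338.8 CPM in sham mice 1 to 4 and 177.4, 277.8, 228.8 and 198.2 CPM in BCAS mice 1 to 4. The highest BCAS mouse, mouse 2, stayed below the lowest sham mouse, mouse 3. The log2 fold change was -0.61 (SE 0.14), with an adjusted p of 0.0129 in edgeR, the smallest of the 8. The level measured is that of the messenger RNA, and how much of the protein was cut and nuclear was not measured.

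As single values, each of the 7 differences had an exact two-sided permutation p of 0.0286, the smallest that 4 against 4 allows, and Fdps had 0.314. The 7 calls were not equally firm. Leaving out 1 mouse at a time kept the call in all 8 fits for Hmgcs1, Cyp51 and Srebf2, whereas Idi1 kept it in 1, Sqle in 2, Dhcr7 in 3 and Fdft1 in 5. All 56 of those fits gave a negative log2 fold change, and the highest adjusted p was 0.0976. The number of the 8 genes called lower was 3 when sham mouse 1, sham mouse 2 or BCAS mouse 4 was dropped, and 4 when sham mouse 3 or BCAS mouse 3 was dropped. Without BCAS mouse 2 it was 8, Fdps included, and 4 genes then also passed the fold threshold. Over the same fits the number of all tested genes called lower ran from 418 to 3675, beside 2199 with all mice.

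**Figure D2:**
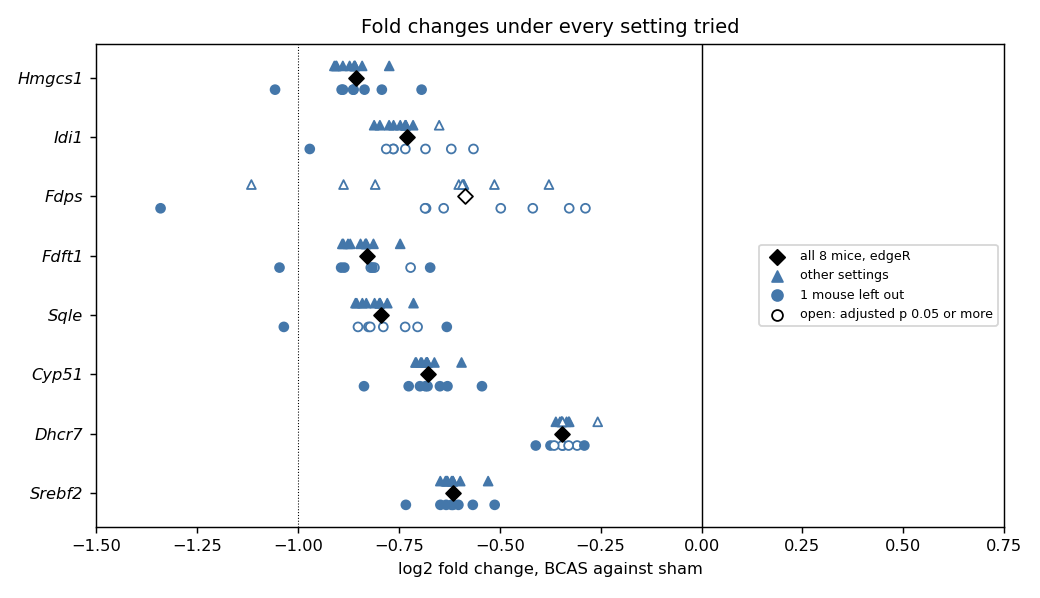
Log2 fold change of BCAS against sham (horizontal axis) for the 8 genes with all 8 mice (black diamonds), under 10 other settings (triangles, upper row) and with 1 mouse left out (circles, lower row), where open symbols have an adjusted p of 0.05 or more. Every symbol lies left of 0, and past the dotted line at -1 lie circles of Hmgcs1, Sqle, Fdft1 and Fdps and 1 triangle of Fdps.

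The promoters were searched for sterol regulatory elements, which SREBP proteins bind close to the start of such genes. The genes were chosen as members of this pathway, so shared elements were likely from the choice itself. Their part in the lower levels was not tested. The RefSeq table on GRCm38.p6 held windows from 250 bases before to 50 bases after the start for 5 of the 8 genes, namely Hmgcs1, Idi1, Cyp51, Srebf2 and Dhcr7, the last with several starts, 7 windows in all. Sqle, Fdps and Fdft1 have no entry. The letters TCACNNCA, a loose form of the sterol regulatory element, searched on both strands, stood in 5 of the 7 windows and in 13.84% of all 32851 windows. The stricter TCACNCCAC, whose matches all overlap TCACNNCA matches, stood in the Hmgcs1 window alone of the 7, and in 1.242% of all windows. CCAAT, the letters that NF-Y binds, stood in 5 of 7 windows against 37.41% of all, and GGGCGG, the letters that Sp1 binds, in 6 of 7 against 35.66% of all. Several of the 7 windows belong to Dhcr7, so the windows are not separate genes. Counted by gene, TCACNNCA stood in 4 of 5, and CCAAT and GGGCGG in 5 of 5. Of the rest of the pathway, 12 of 14 genes had windows, 13 in all, with TCACNNCA in 5 and CCAAT and GGGCGG in 11 each. These matches are letters in a window, and binding was not measured. Given here are the stretches before the first annotated exon for Hmgcs1 (chr13:119690101-119690350, plus strand), Cyp51 (chr5:4104747-4104947, minus strand) and Srebf2 (chr15:82147019-82147180, plus strand). In these windows a match lies ahead of the first annotated exon base. Dhcr7, which fell least of the 7 called genes, also holds matches, TCACTTCA and TCACATCA, but not ahead of the first annotated exon base of its windows. The Idi1 window holds none. Whether the element goes with the size of the fall was not tested. Each runs 5′ to 3′ on the strand of its gene, and capitals mark the TCACNNCA matches on either strand.
Hmgcs1: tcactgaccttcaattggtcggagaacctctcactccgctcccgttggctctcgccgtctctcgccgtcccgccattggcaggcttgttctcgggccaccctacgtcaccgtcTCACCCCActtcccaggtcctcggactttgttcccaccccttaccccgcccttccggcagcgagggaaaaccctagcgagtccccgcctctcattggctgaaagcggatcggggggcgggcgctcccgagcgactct
Cyp51: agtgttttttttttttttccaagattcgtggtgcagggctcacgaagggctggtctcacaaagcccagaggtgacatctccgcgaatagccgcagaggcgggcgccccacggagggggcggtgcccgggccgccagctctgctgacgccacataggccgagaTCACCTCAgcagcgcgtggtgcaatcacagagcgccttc
Srebf2: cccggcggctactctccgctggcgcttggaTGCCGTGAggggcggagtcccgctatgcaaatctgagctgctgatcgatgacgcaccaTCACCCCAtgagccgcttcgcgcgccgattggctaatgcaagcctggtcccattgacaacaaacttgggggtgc
The match begins 137 bases before the start given by RefSeq in Hmgcs1, 88 in Cyp51 and 162 in Srebf2, which has another, TGCCGTGA, read on the opposite strand. The RefSeq start lies downstream of the gene start printed above in Cyp51 and Srebf2, where the stretch ends at that gene start, and upstream of it in Hmgcs1, where the stretch ends at the RefSeq start.

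Levels were compared between genes only as CPM per kilobase of exon. In sham mice Hmgcs1 was highest at 65.1 ± 3.18 CPM per kilobase (SD, n = 4), followed by Srebf2 at 47.0 ± 1.84. Fdft1 at 23.3 ± 1.93, Cyp51 at 18.6 ± 1.56 and Sqle at 15.5 ± 1.63 formed the middle, where each overlapped the next. Idi1 at 8.83 ± 0.685 and Dhcr7 at 6.72 ± 0.609 were low, with no overlap between them, and the leftover Fdps value was 0.335 ± 0.113. The order of the means was the same in BCAS mice. There Hmgcs1 stood at 35.9 ± 11.4 and Srebf2 at 30.7 ± 6.07 CPM per kilobase, and Idi1 at 5.32 ± 1.97 was level with Dhcr7 at 5.29 ± 0.413.

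The BCAS mice had the same order in most of these genes, an order shared by many other genes. In 7 of the 8 genes the level was lowest in mouse 1, next in mouse 4, then mouse 3, and highest in mouse 2. Of all tested genes, 7.77% had this order with every BCAS mouse under every sham mouse. Among the 2799 tested genes with every BCAS mouse under every sham mouse, 1331 had it, so the order is not particular to these genes. As the mean over the 7 genes other than Fdps, log2 CPM differed from the sham mean by -1.15 in BCAS mouse 1, -0.92 in mouse 4, -0.61 in mouse 3 and -0.26 in mouse 2. The SD of this mean among sham mice was 0.086. The mean of the rest of the pathway gave -0.72, -0.59, -0.38 and -0.14 for the same mice, the same order at a smaller size.

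Of the other 14 genes of the pathway, 9 were lower in BCAS mice and none was higher in edgeR, with a median log2 fold change of -0.50. At an unadjusted p under 0.05 there was 1 higher, Lbr, and DESeq2 and limma-voom also gave 9 lower and 0 higher. With the 7 enzymes above this makes 15 of 21 enzymes lower, with a median of -0.55, beside 12.8% lower and a median of -0.0063 among all tested genes. Leaving out 1 mouse at a time moved the 9 to between 2 and 11, with 2 when sham mouse 1, sham mouse 2 or BCAS mouse 4 was dropped and 3 when sham mouse 3, sham mouse 4 or BCAS mouse 3 was dropped.

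Upstream of mevalonate, Acat2, which joins acetyl-CoA units in the cytosol, had a log2 fold change of -0.61 (adjusted p 0.0165 in edgeR). The kinases Mvk and Pmvk and the decarboxylase Mvd, which turn mevalonate into isopentenyl diphosphate, were not called, with log2 fold changes of -0.30, -0.25 and -0.55 and adjusted p values of 0.154, 0.135 and 0.123.

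After squalene, Lss, the cyclase that forms lanosterol, had a log2 fold change of -0.47 (adjusted p 0.0321 in edgeR), and Sc5d, the sterol C5-desaturase, had -0.40 (adjusted p 0.0113). Nsdhl and Hsd17b7, which act in the removal of the C4 methyl groups, had -0.55 (adjusted p 0.0265) and -0.50 (adjusted p 0.0211). Msmo1, the C4-methyl oxidase of the same step, had -0.65 (adjusted p 0.0427), although BCAS mouse 2 at 92.0 CPM lay above sham mouse 4 at 87.1 CPM.

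The C14 reduction has a pair of enzymes. Tm7sf2, a C14 sterol reductase, had a log2 fold change of -0.51 (adjusted p 0.0302 in edgeR), but 47.22% of its exon bases lie under other genes. Lbr encodes the lamin B receptor, a protein of the nuclear envelope with the same reductase activity, and it had 0.36 (adjusted p 0.0743), with every BCAS mouse above every sham mouse. Under scaling by library size alone and under limma-voom with quality weights Lbr was called higher, the only gene of the 14 that was. Ebp, the sterol isomerase, had 0.16 (adjusted p 0.476), with overlapping groups.

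**Figure D3:**
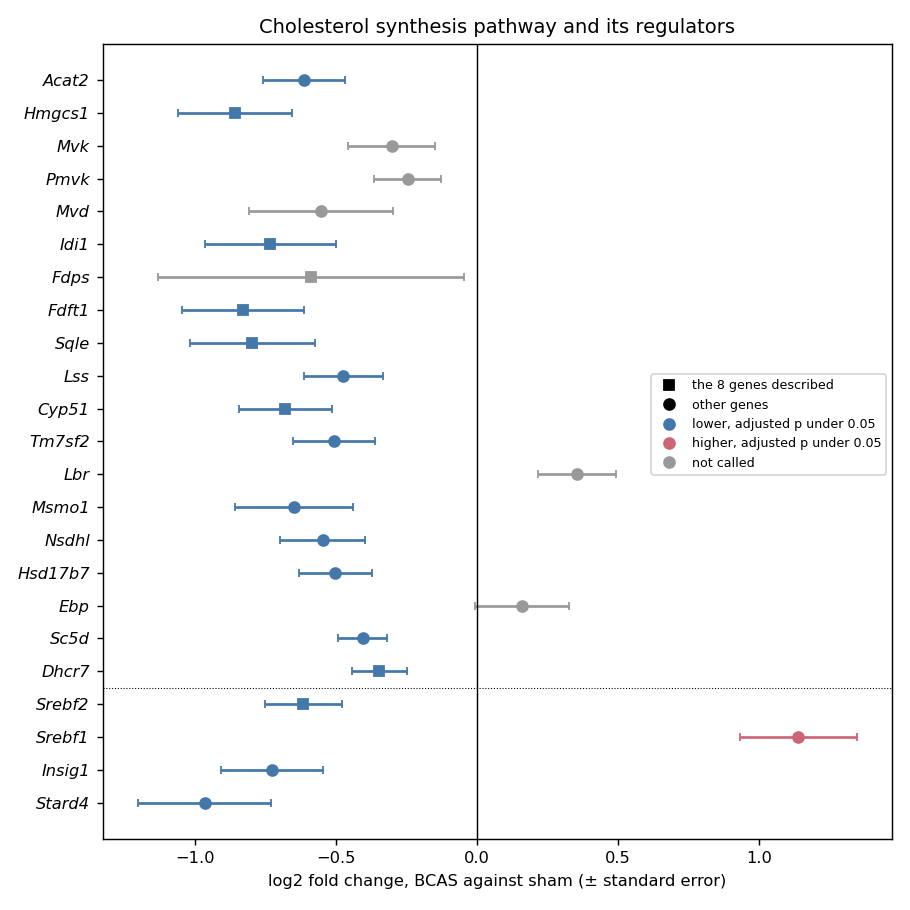
Log2 fold change of BCAS against sham (horizontal axis, with standard error bars) for the enzymes of cholesterol synthesis named in the text, in pathway order above the dotted line, and below it Srebf2, Srebf1, Insig1 and Stard4. Squares are the 8 genes and circles are others, with blue for lower, red for higher and grey for not called. All the enzymes shown lie left of 0 except Lbr and Ebp, and Srebf1 stands alone on the right at 1.14.

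The genes that sense sterols and process SREBP proteins did not move as a block, with 1 of 7 lower, 1 of 7 higher and a median log2 fold change of -0.08. Over all tested genes 12.8% were lower and 19.2% higher, so these counts do not set the list apart. Insig1, itself a target of SREBP-2 that holds Scap in the endoplasmic reticulum, was lower, with 108.9, 101.3, 108.3 and 88.3 CPM in sham mice 1 to 4 and 42.1, 82.3, 64.5 and 57.3 CPM in BCAS mice 1 to 4. Its log2 fold change was -0.72 (SE 0.18, adjusted p 0.0193 in edgeR), with the same order of BCAS mice as the enzymes, and the call was lost when sham mouse 1, sham mouse 2 or BCAS mouse 4 was left out. Srebf1, which encodes SREBP-1 and is a known target of the liver X receptors, went the other way, with 76.5, 78.3, 72.9 and 74.6 CPM in sham mice 1 to 4 and 219.5, 99.3, 157.6 and 189.2 CPM in BCAS mice 1 to 4. Here BCAS mouse 1 was highest and mouse 2 lowest, the mirror image of Srebf2, and the log2 fold change was 1.14 (SE 0.21, adjusted p 0.00637). Scap had -0.08 (adjusted p 0.428) and Insig2 had -0.22 (adjusted p 0.0966).

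Among 8 genes of sterol uptake and transport, 1 was lower and 3 were higher, with a median log2 fold change of -0.22. The shares over all tested genes were 12.8% lower and 19.2% higher. The lower one was Stard4, which carries cholesterol between membranes and is a target of SREBP-2, at -0.96 (SE 0.24, adjusted p 0.0180 in edgeR), a call that was lost when sham mouse 1 or 2 was left out. DESeq2 called 3 genes of this list lower and limma-voom 2. The higher ones were Npc2 at 2.55 (adjusted p 0.00249) and Npc1 at 0.68 (adjusted p 0.0184), which take cholesterol out of lysosomes, and Lrp1 at 0.66 (adjusted p 0.0218), a receptor for particles that hold apolipoprotein E. Of these calls Npc2 held in 8 of 8 fits without 1 mouse, Npc1 in 6 (not without sham mouse 1 or 4) and Lrp1 in 4 (not without sham mouse 2, 3 or 4 or BCAS mouse 3).

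Genes of cholesterol turnover, storage and efflux moved the other way from synthesis, with 8 of 12 higher in edgeR, none lower (1 at an unadjusted p under 0.05, 0 in DESeq2 and limma-voom) and a median log2 fold change of 1.25. All 8 also passed the fold threshold upward, as 11% of the tested genes did. Ch25h, which makes the oxysterol 25-hydroxycholesterol, had 0.455, 1.19, 0.744 and 0.422 CPM in sham mice 1 to 4 and 42.3, 8.86, 22.7 and 23.5 CPM in BCAS mice 1 to 4, a log2 fold change of 5.11 (adjusted p 0.00146 in edgeR). The efflux pump gene Abca1 had 3.02 (adjusted p 0.00375), Apoe, the main apolipoprotein of the brain, had 2.61 (adjusted p 0.00410), and Soat1, which esterifies cholesterol for storage, had 1.44 (adjusted p 0.00476). Cyp46a1, the neuronal 24-hydroxylase through which the brain disposes of cholesterol, had -0.48 (adjusted p 0.0951) and was not called.

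The branches that share substrate or regulators with the pathway had smaller median changes than the synthesis genes, a difference that was not tested. Over all tested genes 12.8% were lower and 19.2% higher, with a median of -0.0063. So few calls were not read as a change of either branch. Of 8 genes of the isoprenoid branches that lead to other products, 2 were lower and 1 was higher, with a median log2 fold change of -0.19. The lower ones were Ggps1, which makes geranylgeranyl diphosphate, at -0.27 (adjusted p 0.0310 in edgeR), and Dhdds, of dolichol synthesis, at -0.39 (adjusted p 0.0121), while Fnta, a subunit of protein prenyltransferases, had 0.28 (adjusted p 0.0477). The Dhdds call held in all 8 fits without 1 mouse, Ggps1 in 2 and Fnta in 1 (without BCAS mouse 2). Fnta was also not called under limma-voom, upper quartile normalization, no filter or a replicate block. Of 11 fatty acid synthesis genes linked to SREBP-1, 1 was lower and 2 were higher, with a median of -0.05. Acss2, which makes acetyl-CoA from acetate, had -0.53 (adjusted p 0.0373), and the chain elongase Elovl5 and the desaturase Fads2 had 0.69 (adjusted p 0.0119) and 0.37 (adjusted p 0.0270). Fasn, the fatty acid synthase, had -0.14 (adjusted p 0.244). Without 1 mouse the Elovl5 call held in 8 of 8 fits, Fads2 in 3 and Acss2 in 2.

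Cell type markers also differed between the groups, with neuron markers moving in the direction of these genes. Their part in the result was not tested. All 10 neuron markers had high levels in sham mice. No defining marker of neurons, astrocytes or oligodendrocytes was at 0 in any library. These are markers of brain tissue, and none was chosen to tell the cortex from other brain regions. Neuron markers were lower for 8 of 10 genes with a median log2 fold change of -0.74, close in size to the -0.73 of the 7 genes, and their summed level was 10373 to 12031 CPM in sham and 4085 to 8847 CPM in BCAS mice. Their mean log2 CPM relative to sham was -1.38, -0.33, -0.69 and -0.74 in BCAS mice 1 to 4, the order of mice seen for the synthesis genes. Microglia and macrophage markers were higher for 10 of 10 genes, with sums of 389 to 470 CPM in sham and 1943 to 7735 CPM in BCAS mice.

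No astrocyte or oligodendrocyte marker was called lower with all 8 mice. Cell numbers were not measured, and the part of these cell types in the result was not tested. Astrocyte markers were higher for 6 of 9 genes with a median log2 fold change of 0.52, and their sum went from between 6491 and 7854 CPM in sham to between 8332 and 12135 CPM in BCAS mice. Of the 10 oligodendrocyte markers none was called in either direction in edgeR (0 lower and 1 higher at an unadjusted p under 0.05, and 1 higher in DESeq2), with a median of 0.14 and sums of 4107 to 6575 CPM in sham and 5699 to 8723 CPM in BCAS mice. Sham mouse 3 alone set the lower end of that sham range, and without it the oligodendrocyte median was -0.00056, with 1 marker lower, Opalin, and none higher in edgeR (an alternative added after the data were seen). Without the same mouse 4 of 10 neuron markers were lower and 4 of 9 astrocyte markers higher, with medians of -0.76 and 0.45. Oligodendrocyte precursor markers were higher for 3 of 5 genes, endothelial markers for 1 of 7 and hemoglobin genes for 2 of 4, beside 19.2% of all tested genes. None of the 4 choroid plexus markers was called in edgeR (1 lower at an unadjusted p under 0.05) or in DESeq2. In sham mouse 3, where those markers stood out, the 7 genes had a mean log2 CPM within 0.072 of the sham mean.

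**Figure D4:**
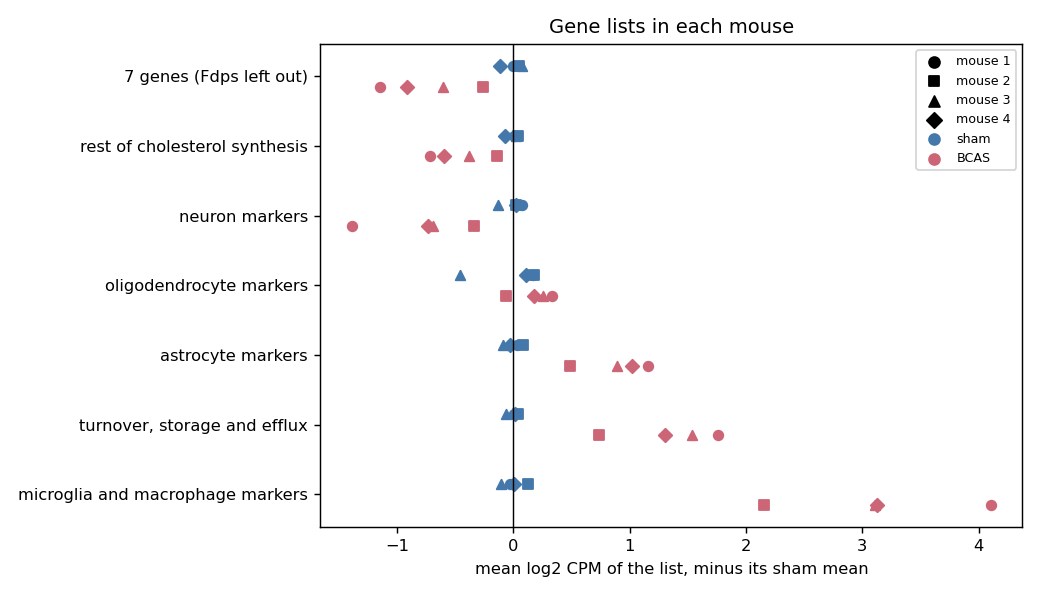
Mean log2 CPM of 7 gene lists in each mouse minus the mean of the sham mice (horizontal axis), for sham (blue) and BCAS (red), where the symbol shape gives the mouse number and equal numbers in both groups are not pairs. For the 7 synthesis genes without Fdps, the rest of the pathway and the neuron markers the BCAS mice lie left of the sham mice with mouse 1 farthest left, and for the astrocyte, efflux and microglia lists they lie to the right.

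The genes whose pattern across mice was most like that of the 8 were found by the Pearson correlation over the 8 libraries between a gene's log2 CPM and the mean of the 8, both centred on their group means. Among 10934 genes with a mean of at least 10 CPM, the highest were Cpeb4 (r = 0.993), Rxfp1 (0.988), Gpd2 (0.985), Dync1li1 (0.984) and Tbc1d9 (0.984). The points share their libraries, and after centring the spread comes mostly from the 4 BCAS mice, so these values are descriptions. The sparse Fdps counts weighed on this ranking. With the mean of the other 7 genes, an alternative added after the data were seen, the highest were Gpd1l (0.995), Rxfp1 (0.994) and Msmo1 (0.993), the last an enzyme of the pathway, with Stard4 in place 8. Against the mean of all 8, of which each is itself a part, the members ranged from 0.989 for Idi1 and 0.987 for Sqle to 0.701 for Dhcr7.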

How the data were processed

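RNA-seq of 8 right cerebral cortices was used, 4 sham and 4 BCAS, grouped by the titles of the samples. Per the methods and the labels, the authors used Trim Galore to trim the read pairs, HISAT2 to align them to mm10 and SAMtools 1.9 to sort them, and counted read pairs on exons with featureCounts. The deposited values are raw counts per gene, without normalization. The headers name featureCounts 2.0.1 and GENCODE vM20, no strand option and no option for pairs on several genes, while the methods name featureCounts 1.6.3 and RefSeq genes. Symbols came from a GENCODE table, which matched 53861 of 54752 identifiers with their version and 862 without it, and left 29 unmatched.

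From these counts, edgeR 4.0.16 in R 4.3.3 gave TMM-normalized CPM, the filterByExpr filter (minimum count 10, minimum total 15; 17136 genes kept) and the quasi-likelihood test of BCAS against sham without covariates, with Benjamini-Hochberg adjustment over all tested genes. The study's own test was limma, and limma 3.58.1 and DESeq2 1.42.0 served as alternatives, with other normalizations, filters, a replicate block and each mouse left out. Levels between genes were divided by the exon length in the tables. Shares of exon bases under other genes were taken from the annotation. Promoter windows and sequences are those of RefSeq on GRCm38.p6. Figures were drawn with matplotlib 3.10.9. The fits were tested on simulated data with known changes.

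The members, gene lists, marker lists and tests were chosen with earlier results of these data known. Named genes are the 8 members, the other enzymes of the pathway, Insig1 and Srebf1, of each other list up to 4 genes in each direction with the smallest adjusted p under 0.05, and the 5 genes most like the members. Outside this rule and chosen after their values were seen are Ctsb, Akap9, Gm43738 and Gm48342, which share exon bases with members, and Scap, Insig2, Cyp46a1, Fasn, Opalin, Gpd1l and the later ranks of the likeness. Some genes counted in the lists are not reported here by name.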

Additional observations from a re-analysis of the deposited data

Results flagged for a closer look

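In the 16 groups of 4 mice formed by the 8 genes and the 2 conditions, 2 single values lay far from the other 3 of their group by Dixon's ratio, where chance alone marks about 1 group in 20. Fdps in sham mouse 3 had 2.12 CPM against 1.12 to 1.27 CPM in the other sham mice, with a ratio of 0.855. These are values of at most 41 read pairs. Fdft1 in sham mouse 4 had 86.4 CPM against 101.7 to 103.6 CPM in the others, with a ratio of 0.889. Without sham mouse 4, Fdft1 was still called lower in edgeR.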

How the results depend on the processing

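Of the 7 genes called lower, 66 of 70 fits under the 10 other settings with all mice kept the call and all kept the direction, with a highest adjusted p of 0.0592. Idi1 and Dhcr7 lost it under library size alone (5 of the 8 genes lower), and Dhcr7 also without a filter and with a replicate block (6 each). Library size alone moved the median of all genes to 0.083 and the calls over all genes from 2199 lower and 3291 higher to 1294 and 3984, DESeq2 gave 3112 and 3790, and quality weights gave 3855 and 4221. Counts in the small lists moved with the setting, and the cause was not tested. Of the rest of the pathway, 1 gene was higher under library size alone and under quality weights. Of the uptake list, 3 genes were lower under DESeq2 and quality weights and 2 under limma-voom and limma on log2(CPM + 1). Of the efflux list, 2 were lower under quality weights. Of the isoprenoid branch, 1 was lower under library size alone and without a filter, while 0 were higher under upper quartile, no filter and limma-voom and 2 under quality weights. Of the fatty acid list, 0 were lower under library size alone and 2 under DESeq2 and quality weights.

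The replicate numbers did not pair the mice: the correlations of the deviations of same-numbered mice were -0.0455, -0.103, -0.00821 and 0.00126, and no BCAS mouse correlated best with its own number. With the replicate block 1127 genes were lower and 2419 higher, 6 of the 8 genes were lower, and the lists gave 2 lower for uptake, 1 lower and 0 higher for isoprenoids, and 0 lower and 1 higher for fatty acids.

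Leaving out 1 mouse gave 3 to 8 of the 8 genes lower and 0 to 4 past both thresholds, 2 to 11 lower and 0 to 1 higher in the rest of the pathway, 0 to 1 lower in sterol sensing, 0 to 3 lower and 1 to 3 higher in uptake, 0 to 2 lower and 6 to 8 higher in efflux, 1 to 3 lower and 0 to 2 higher in isoprenoids, and 0 to 2 lower and 1 to 2 higher in fatty acids. The coefficient of variation of the 7 genes was 3.91% to 10.5% among sham and 7.81% to 37.1% among BCAS mice, and Fdps had at most 41 counts in a library.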
